A study of Mus musculus with 6 samples.

Results

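The enzymes that oxidise alcohols and aldehydes were followed in RNA from mouse stomach as 9 genes chosen by symbol, the alcohol dehydrogenases Adh1, Adh4, Adh5 and Adh7, the aldehyde dehydrogenases Aldh1a1, Aldh1b1, Aldh2 and Aldh3a1, and the cytochrome P450 gene Cyp2e1. All 9 were found among the 23550 gene symbols of the FPKM table, in which each value is a fragment count scaled by the length of the gene and the size of the library. The 6 libraries comprised 3 from mice given Riclin by gavage at 20 mg per kg (replicates 2, 3 and 4) and 3 from mice given saline by gavage (replicates 1, 2 and 4, whose label also carries 20 mg per kg). The experiment lasted 14 days and used 20 mice, and Riclin is a bacterial polysaccharide given as a soluble fibre. Ethanol was given to mice in a separate injury experiment of the study, and the labels of these 6 libraries name none. Strain, age and sex, and whether each library came from 1 mouse and which region of the stomach was taken, were not stated in the labels. The p-values set the group difference against the spread between libraries within groups, and how far they hold for mice is unknown.

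Alcohol dehydrogenases convert ethanol to acetaldehyde and retinol to retinaldehyde in the cytosol, and aldehyde dehydrogenases carry the products on to acetate or retinoic acid. The stomach is a site of first-pass ethanol oxidation and has its own class IV enzyme, encoded by Adh7, while Adh1 encodes the class I enzyme that dominates in liver. Aldh2 encodes the mitochondrial enzyme that clears acetaldehyde, and CYP2E1 is an ethanol-inducible enzyme of the endoplasmic reticulum.

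On GRCm38 the 4 alcohol dehydrogenase members lay in 1 cluster on chromosome 3, from 138217760 to 138455499, a span of 238 kb that also holds Adh6a and Adh6b. All 6 genes are on the plus strand, in the order Adh7, Adh1, Adh6a, Adh6b, Adh4 and Adh5. The other members are spread over the genome, with Aldh3a1 on chromosome 11 (61207537 to 61218421, plus strand), Aldh1a1 on chromosome 19 (20492715 to 20643465, plus strand), Aldh1b1 on chromosome 4 (45799022 to 45804604, plus strand), Aldh2 on chromosome 5 (121566027 to 121593824, minus strand) and Cyp2e1 on chromosome 7 (140763739 to 140774987, plus strand). All 9 are annotated as protein-coding. Annotated genes on the opposite strand overlap Adh1 (Gm16559), Adh7 (0610031O16Rik) and Aldh2 (Gm42879) over 88, 108 and 130 bases, and whether the counting used strand is not stated. Promoters of 7 of the 9 were matched in the RefSeq table for GRCm38.p6, which gives 250 bases before and 50 after each transcription start, and 4 are shown because their genes stand at the ends of what was measured. Adh5 varied least between libraries and Cyp2e1 most, Adh7 is the stomach class, and Aldh1a1 was the member with no overlap between the groups. Capitals mark 4 motifs searched on either strand. They are the TATA box in the form TATAAA, the box named for its letters CCAAT, the core bound by the aryl hydrocarbon receptor with the letters GCGTG, and the antioxidant response core TGACNNNGC.
Adh5 (chr3:138442843-138443142, plus strand): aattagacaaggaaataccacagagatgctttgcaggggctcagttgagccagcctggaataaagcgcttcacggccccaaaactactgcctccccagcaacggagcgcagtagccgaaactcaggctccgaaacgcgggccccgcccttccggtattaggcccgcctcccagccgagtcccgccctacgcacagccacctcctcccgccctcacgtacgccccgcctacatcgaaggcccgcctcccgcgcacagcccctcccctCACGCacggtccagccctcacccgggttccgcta
Adh7 (chr3:138217523-138217822, plus strand): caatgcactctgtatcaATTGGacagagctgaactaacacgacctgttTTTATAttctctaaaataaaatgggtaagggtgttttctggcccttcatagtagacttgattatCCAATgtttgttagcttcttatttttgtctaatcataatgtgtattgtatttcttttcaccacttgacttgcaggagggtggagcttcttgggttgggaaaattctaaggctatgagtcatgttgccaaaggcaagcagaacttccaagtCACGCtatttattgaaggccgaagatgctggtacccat
Aldh1a1 (chr19:20601718-20602017, plus strand): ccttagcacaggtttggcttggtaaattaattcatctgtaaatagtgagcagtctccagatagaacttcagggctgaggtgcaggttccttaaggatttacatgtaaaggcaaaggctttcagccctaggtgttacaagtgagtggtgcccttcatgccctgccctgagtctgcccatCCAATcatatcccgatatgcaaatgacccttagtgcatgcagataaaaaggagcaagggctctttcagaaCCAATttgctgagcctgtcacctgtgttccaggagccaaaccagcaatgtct
Cyp2e1 (chr7:140763569-140763868, plus strand): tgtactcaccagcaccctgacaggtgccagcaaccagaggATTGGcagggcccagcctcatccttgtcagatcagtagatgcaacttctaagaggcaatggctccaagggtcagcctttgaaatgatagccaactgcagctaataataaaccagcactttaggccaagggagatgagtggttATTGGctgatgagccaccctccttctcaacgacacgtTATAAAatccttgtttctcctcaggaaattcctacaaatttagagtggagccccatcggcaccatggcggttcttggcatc

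The Adh5 promoter held 26 CpG dinucleotides, against a median of 7 over the 32851 promoters of the table, and the other 3 held 3 (Adh7), 1 (Aldh1a1) and 4 (Cyp2e1). A TATA box stood in the Cyp2e1 window at -31 from the start, and 1 in reverse orientation in the Adh7 window at -202. CCAAT boxes were found in the Adh7, Aldh1a1 and Cyp2e1 windows, 2 in each, and the receptor core was found once in Adh5 and once in Adh7, on the reverse strand in both. No match overlapped another, and the antioxidant core was in none of the 4 windows. Of all promoters, 13.6% held the TATA letters, 37.4% a CCAAT box, 32.4% the receptor core and 12.4% the antioxidant core, so these matches describe the letters present and no more.

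The labelled tissue was checked against defining genes of the gastric glands. The proton pump gene Atp4b of parietal cells measured 2420 to 3257 FPKM in Riclin and 1776 to 2777 FPKM in saline libraries, and the pit cell peptide gene Tff1 measured 23660 to 35998 FPKM in Riclin and 26603 to 43360 FPKM in saline libraries. Of 6 antral and endocrine markers, all tested, 4 were higher and 2 lower in Riclin. The lower ones, both without overlap, were Gast and Pdx1, where 3.02% of all tested genes had such a gap with Riclin lower. Of the higher ones Chga had no overlap, at 284 to 396 FPKM in Riclin and 252 to 265 FPKM in saline. Over all tested genes 8.14% had such a gap with Riclin higher. Gast measured 2.62 to 420 FPKM in Riclin, lowest in replicate 4, and 676 to 1037 FPKM in saline. Pdx1 measured 1.93 to 4.29 FPKM in Riclin and 6.51 to 8.48 FPKM in saline. The part of stomach region in the enzyme values was not tested. The library totals implied by the values were 37253728 to 40050267 reads in Riclin and 30884067 to 38872411 reads in saline libraries. Transcripts of neighbouring organs were also measured. Pancreatic acinar genes (22 listed, all 22 tested) summed to 278 to 107400 FPKM in Riclin and 39023 to 159250 FPKM in saline libraries, with Riclin replicate 3 and saline replicate 1 the lowest, and the hepatocyte gene Alb ranged from 2.58 to 143 FPKM. With Riclin and saline compared over 11738 genes by limma on log2(FPKM + 1), 0 passed a Benjamini-Hochberg adjusted p of 0.05 (0% called), and 693 (5.9%) had an unadjusted p under 0.05, of which 69% were higher in Riclin, or 47.7% with median-of-ratios and 53.2% with upper-quartile scaling. Limma's voom on reads recovered from the values called 0 genes as well, with 740 at an unadjusted p under 0.05.

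None of the 9 enzymes passed the test between Riclin and saline. Adh4 did not reach the filter of 1 FPKM in at least 3 libraries, and the other 8 were tested. Of those 3 had a higher and 5 a lower mean log2 level in Riclin, where all tested genes gave 7195 and 4543. Without saline replicate 1 the split turned to 5 and 3, beside 8038 and 3524 over all tested genes. Without Riclin replicate 4 it turned to 4 and 4, beside 7527 and 4078. The median of the members' log2 fold changes was -0.13 beside 0.040 over all tested genes. With an unadjusted p under 0.05 there were 0 of 8, also 0 with voom on recovered reads. The groups did not overlap in 1 of the 8, Aldh1a1, which was higher in Riclin, where 11.2% of all tested genes had such a gap and 8.14% had it with Riclin higher.

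**Figure D1:**
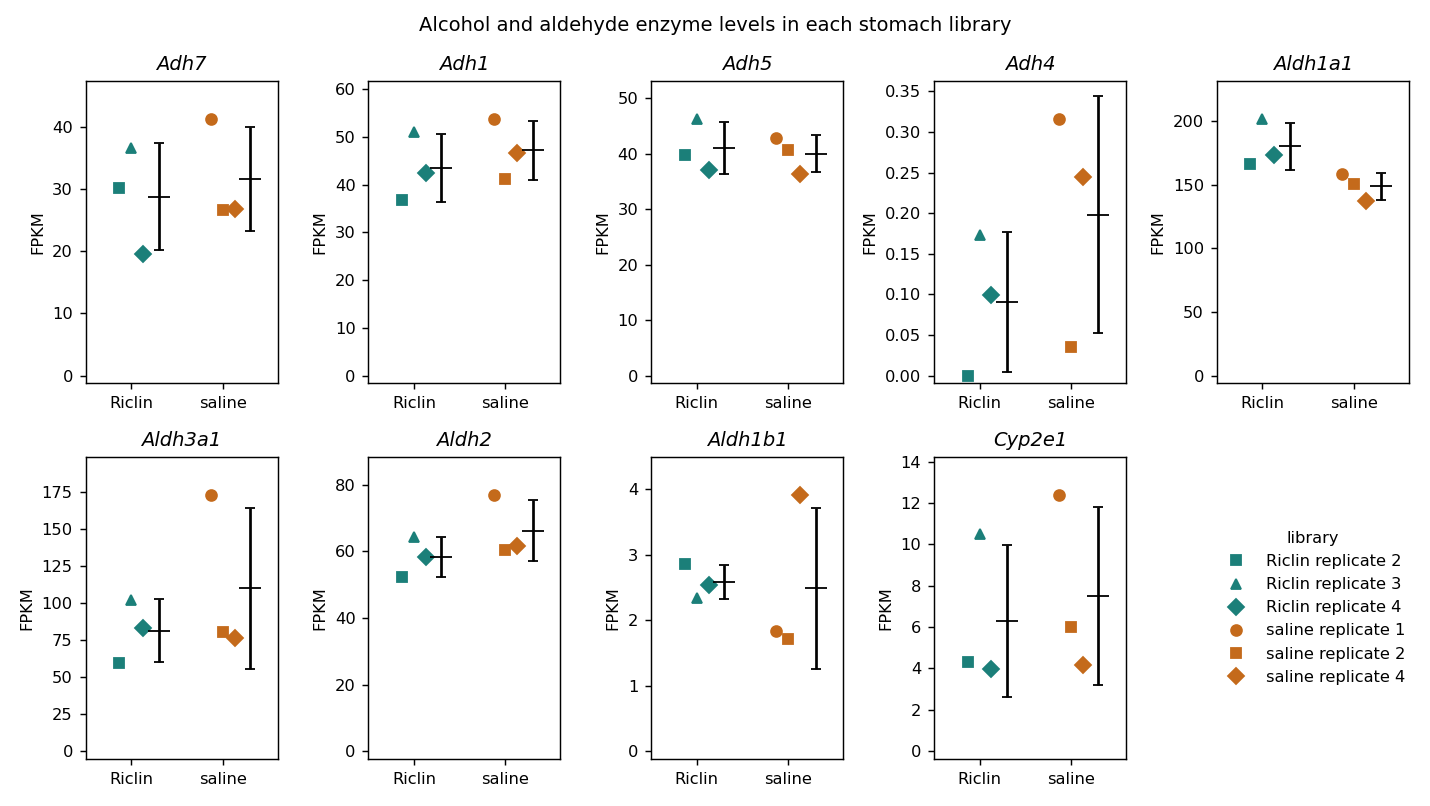
FPKM of each of the 9 enzyme genes (vertical axes, linear, starting near 0) in the 3 Riclin and 3 saline libraries (symbols give the replicate number), with the mean and SD of each group as a black bar. Aldh1a1 is the gene in which all Riclin libraries lie above all saline libraries, and saline replicate 1 stands high for Aldh3a1 and Cyp2e1.

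The enzymes differed widely in level. Averaged over the 6 libraries and per gene length, Aldh1a1 stood at 165 FPKM, Aldh3a1 at 95.5, Aldh2 at 62.3, Adh1 at 45.3, Adh5 at 40.5 and Adh7 at 30.2 FPKM. Cyp2e1 followed at 6.90, Aldh1b1 at 2.53 and Adh4 at 0.144 FPKM. Aldh1a1, first in this order, was above 98.6% of all genes in the table. Among neighbours in the order, the ranges over libraries overlapped for each of the first 5 pairs, and Aldh1a1 stood above Aldh3a1 in 5 of 6 libraries and Adh1 above Adh5 in 5 of 6. The ranges did not overlap between Adh7 and Cyp2e1, Cyp2e1 and Aldh1b1, or Aldh1b1 and Adh4.

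Adh7, the class IV enzyme that oxidises ethanol and retinol in the upper digestive tract, measured 30.3, 36.7 and 19.5 FPKM in Riclin replicates 2, 3 and 4, against 41.3, 26.7 and 26.9 FPKM in saline replicates 1, 2 and 4. The groups overlapped, with the highest value in a saline library and the lowest in a Riclin library. Its log2 fold change was -0.14 (SE 0.254, 95% interval -0.73 to 0.45, limma adjusted p = 0.943), and it turned to 0.10 without Riclin replicate 4 and to 0.057 without saline replicate 1. The 3 genes with the pattern most like it over the 6 libraries, among 862 genes whose log2 values span at least 1 unit, were the gel-forming surface mucin Muc5ac (Pearson r = 0.99), the Ly6 family gene Ly6g6e (r = 0.98) and the mucin-like Mucl3 (r = 0.98). Muc5ac measured 361, 508 and 246 FPKM in Riclin replicates 2, 3 and 4 and 546, 341 and 329 FPKM in saline replicates 1, 2 and 4. Of the 8 pit cell markers listed, all tested, 1 was higher and 7 lower in Riclin, and the list summed to 63783 to 92194 FPKM in Riclin and 66745 to 114239 FPKM in saline libraries, and its part in the Adh7 values was not tested. In whole tissue, fewer cells of a type and less RNA per cell cannot be told apart.

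Adh1, the class I enzyme with a high activity for ethanol, measured 36.9, 51.1 and 42.4 FPKM in Riclin replicates 2, 3 and 4, against 53.7, 41.2 and 46.6 FPKM in saline replicates 1, 2 and 4. The groups overlapped, with the highest value in saline replicate 1 and the lowest in Riclin replicate 2. The log2 fold change was -0.12 (SE 0.155, 95% interval -0.48 to 0.24, limma adjusted p = 0.926), and it was -0.0097 without Riclin replicate 2 and -0.024 without saline replicate 1. The genes most like it in pattern were H2-Q10, a secreted class I-like gene of liver (r = 0.97), the endothelial proteoglycan Esm1 (r = 0.96) and the liver and intestinal fatty acid carrier Fabp1 (r = 0.96). Fabp1 measured 0.682, 35.9 and 6.63 FPKM in Riclin replicates 2, 3 and 4 and 22.4, 5.26 and 12.5 FPKM in saline replicates 1, 2 and 4, low in Riclin replicate 2 as Adh1 was.

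Adh5, the class III enzyme that oxidises formaldehyde bound to glutathione and reduces nitrosoglutathione, was the most even of the 8 tested enzymes. It measured 39.8, 46.2 and 37.0 FPKM in Riclin replicates 2, 3 and 4, against 42.8, 40.7 and 36.3 FPKM in saline replicates 1, 2 and 4. Its SD over the 6 libraries was 0.127 on the log2 scale, and 30.7% of all tested genes had a smaller one. The log2 fold change was 0.033 (SE 0.124, 95% interval -0.26 to 0.32, limma adjusted p = 0.978), a value near 0 whose sign turned in 7 of 17 alternatives, both scalings among them. Inmt, a methyltransferase of small amines (r = 0.98), Sncg, a synuclein (r = 0.96), and the growth factor gene Fgf18 (r = 0.94) ran most like it.

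Adh4, the class II enzyme of liver, was near the limit of detection. It was listed at 0, 0.173 and 0.0992 FPKM in Riclin replicates 2, 3 and 4, against 0.315, 0.0349 and 0.244 FPKM in saline replicates 1, 2 and 4. These values rest on 0, 22 and 12 reads in Riclin and on 39, 4 and 24 reads in saline libraries. For Riclin replicate 2, with a count of 0, a limit of 3 reads stands at 0.0253 FPKM. The 95% Poisson interval, a different measure, reaches 0.0311 FPKM in that library. The read counts differ between libraries of 1 group by more than the counting error, with 95% Poisson intervals of 0.224 to 0.431 FPKM in saline replicate 1 and 0.00951 to 0.0894 FPKM in saline replicate 2, which cover counting error only. Together the 4 alcohol dehydrogenases summed to 113 ± 18.4 FPKM in Riclin and 119 ± 16.6 FPKM in saline (SD, n = 3 each). Adh7 made up 25.1 ± 4.73% of that sum in Riclin and 26.3 ± 3.11% in saline, and Adh1 made up 38.5 ± 4.18% in Riclin and 39.7 ± 2.34% in saline, differences smaller than the SDs. Adh5 made up 36.3 ± 1.66% in Riclin and 33.8 ± 3.31% in saline. That difference was larger than the Riclin SD and smaller than the saline SD, and the ranges overlapped.

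**Figure D2:**
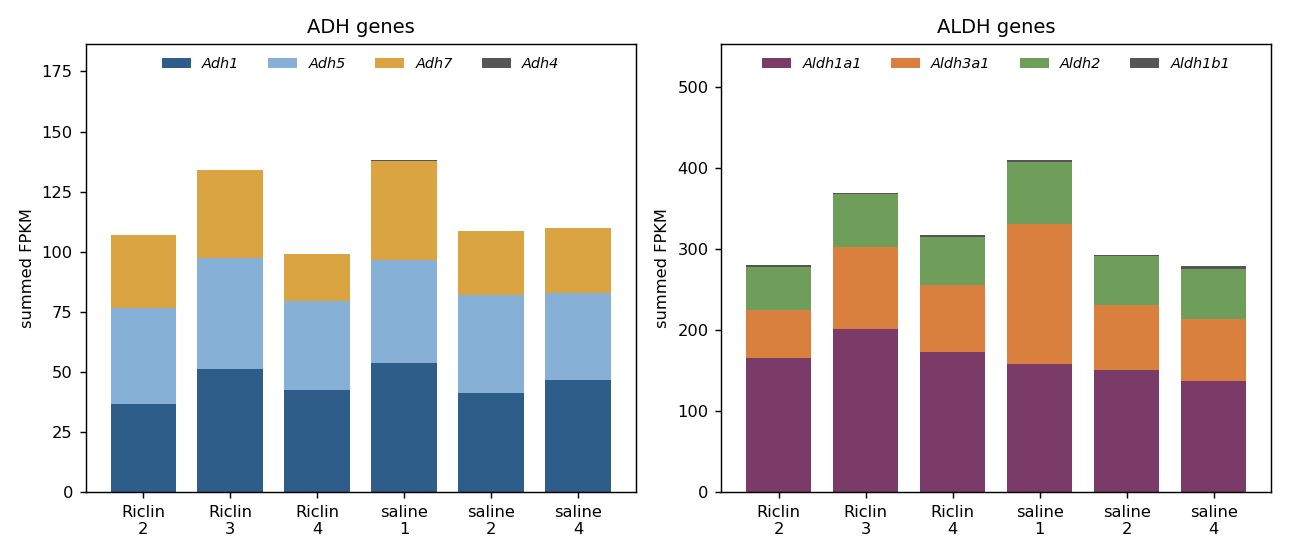
Summed FPKM (vertical axes, from 0) of the 4 alcohol dehydrogenase members (left) and the 4 aldehyde dehydrogenase members (right) in each Riclin and saline library, stacked by gene. Adh1, Adh5 and Adh7 share the ADH sum in all 6 libraries, and Aldh3a1 takes its widest part of the ALDH sum in saline replicate 1 (42.1%).

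Aldh1a1, the cytosolic enzyme that forms retinoic acid from retinaldehyde and also oxidises aldehydes from lipid peroxidation, was the member whose groups stood apart. It measured 166, 201 and 173 FPKM in Riclin replicates 2, 3 and 4, against 158, 150 and 137 FPKM in saline replicates 1, 2 and 4. Every Riclin library lay above every saline library, though the gap between 166 FPKM in Riclin replicate 2 and 158 FPKM in saline replicate 1 was small beside the spread within groups. The mean was 180 ± 18.6 FPKM in Riclin and 149 ± 10.6 FPKM in saline (SD, n = 3 each), 1.21-fold higher. Its log2 fold change of 0.27 (SE 0.135, 95% interval -0.041 to 0.59) did not pass the test (limma adjusted p = 0.823). Over the 17 alternatives the log2 fold change lay between 0.19 and 0.33 and the limma adjusted p between 0.631 and 0.965. As a share of the ALDH sum, Aldh1a1 took 54.5 to 59.3% in Riclin and 38.7 to 51.4% in saline libraries, and Aldh2 took 17.4 to 18.6% in Riclin and 18.8 to 22.0% in saline libraries. Neither share overlapped between the groups, and shares of 1 sum are not independent of each other. Of all tested genes 11.2% had such a gap in FPKM. The shares of Aldh3a1 (21.1 to 27.5% in Riclin, 27.4 to 42.1% in saline) and Aldh1b1 (0.633 to 1.02% in Riclin, 0.447 to 1.40% in saline) overlapped. Saline replicate 1, lowest in the Aldh1a1 share, was highest in the Aldh3a1 share.

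Its 3 nearest genes in pattern were the interferon-induced genes Oas1g (r = 0.99), Oas1a (r = 0.99) and Dhx58 (r = 0.99). The Oas1 genes activate an antiviral ribonuclease and are close copies of each other, so their split of reads is uncertain, and Dhx58 encodes an RNA sensor. Oas1g measured 26.5, 42.7 and 27.6 FPKM in Riclin replicates 2, 3 and 4 and 21.9, 19.1 and 13.0 FPKM in saline replicates 1, 2 and 4. Of the 9 parietal markers, all tested, 9 were higher in Riclin (sums of 4366 to 5851 FPKM in Riclin and 3268 to 4800 FPKM in saline), and of 6 chief cell markers all 5 tested were higher (sums of 68521 to 93353 FPKM in Riclin and 36523 to 69962 FPKM in saline). The 4 mucous neck markers, all tested, were lower (sums of 2274 to 6149 FPKM in Riclin and 5097 to 13435 FPKM in saline). In these 3 lists 0 genes passed the adjusted threshold by limma, and the part of these cell types in the Aldh1a1 values was not tested. Aldh1a7, a near relative beside it on chromosome 19, shares 3.06% of the 50-base windows of the Aldh1a1 transcripts. At 16.8, 10.7 and 9.75 FPKM in Riclin replicates 2, 3 and 4 and 10.8, 15.8 and 12.5 FPKM in saline replicates 1, 2 and 4, it did not follow the order of libraries seen for Aldh1a1.

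Aldh3a1, a cytosolic enzyme for aromatic and medium-chain aldehydes that is abundant in stomach and cornea, had 1 library far above the others. It measured 59.1, 102 and 83.0 FPKM in Riclin replicates 2, 3 and 4, against 173, 80.3 and 76.5 FPKM in saline replicates 1, 2 and 4. Saline replicate 1 was higher than any other library and the remaining 5 lay between 59.1 and 102 FPKM, with group means of 81.3 ± 21.4 FPKM in Riclin and 110 ± 54.4 FPKM in saline (SD, n = 3 each). The log2 fold change of -0.36 (SE 0.334, 95% interval -1.13 to 0.42, limma adjusted p = 0.894) was 0.018 without saline replicate 1. That library also had the lowest sum of the forestomach squamous markers, at 179 FPKM (Krt14 at 5.95 FPKM), against 588 and 1029 FPKM in the other saline libraries and 808 to 1113 FPKM in Riclin, and of 16 such markers the 13 tested were all higher in Riclin. The part of the squamous lining in the Aldh3a1 values was not tested. The genes most like it in pattern were the acute-phase protein haptoglobin, Hp (r = 0.99), the sugar transporter Slc2a6 (r = 0.96) and Xlr3a (r = 0.95), a member of a family of close copies. Hp measured 11.4, 16.9 and 13.9 FPKM in Riclin replicates 2, 3 and 4 and 29.4, 14.7 and 13.0 FPKM in saline replicates 1, 2 and 4.

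Aldh2, the mitochondrial enzyme of acetaldehyde, followed Aldh3a1 across the libraries in a narrower range. It measured 52.2, 64.3 and 58.4 FPKM in Riclin replicates 2, 3 and 4, against 76.9, 60.3 and 61.5 FPKM in saline replicates 1, 2 and 4. The groups overlapped through Riclin replicate 3. The log2 fold change was -0.18 (SE 0.141, 95% interval -0.50 to 0.15, limma adjusted p = 0.882), and -0.067 without saline replicate 1. Aldh3a1 was the gene with the pattern most like it (r = 0.97), followed by the lectin gene Cd209b (r = 0.97) and the phosphatase-like Hdhd3 (r = 0.97). No other pair of members had an r as high over the 6 libraries, with 0.92 for Adh1 and Aldh2 next and -0.62 for Aldh1b1 and Cyp2e1 at the low end. These values describe 6 points that share library, depth and tissue make-up.

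Aldh1b1, another mitochondrial enzyme of acetaldehyde and of retinaldehyde, was low. It measured 2.86, 2.34 and 2.54 FPKM in Riclin replicates 2, 3 and 4, against 1.83, 1.71 and 3.91 FPKM in saline replicates 1, 2 and 4, from 142 to 278 reads a library. The Riclin values lay within the range of the saline values. The log2 fold change was 0.091 (SE 0.222, 95% interval -0.42 to 0.61, limma adjusted p = 0.963), and it turned to -0.031 without saline replicate 1 and -0.062 without saline replicate 2. Saline replicate 4, highest in Aldh1b1, was also highest in the intestinal phosphatase gene Alpi, at 42.0 FPKM against 0.146 to 2.0 FPKM in the other libraries, and in the cluster gene Adh6a, at 3.11 FPKM against 0.115 to 1.26 FPKM. The other intestinal markers were mixed in that library. Fabp2, Sis, Lct and Muc2 were highest in it, Apoa4 was lowest in it at 58.8 FPKM, and Vil1, Anpep and Zg16 were not highest. The intestinal list (9 genes, 6 tested) summed to 262 to 3353 FPKM in Riclin and 1410 to 4825 FPKM in saline, of which Zg16, also on the acinar list, made 40.2 to 3198 FPKM in Riclin and 1232 to 4677 FPKM in saline, and its part in these values was not tested. Gda, which deaminates guanine (r = 0.96), Erich5 (r = 0.95) and the gene listed as ATP6 (r = 0.93) ran most like it.

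Cyp2e1, the P450 of the microsomal ethanol pathway, varied more than any other tested member. It measured 4.33, 10.5 and 3.99 FPKM in Riclin replicates 2, 3 and 4, against 12.4, 6.02 and 4.17 FPKM in saline replicates 1, 2 and 4. One library of each group stood high and the others lay between 3.99 and 6.02 FPKM. The SD over libraries was 0.626 on the log2 scale, above that of 96.9% of tested genes, and the counting error was small beside it (95% Poisson intervals of 9.77 to 11.3 FPKM in Riclin replicate 3 and 11.6 to 13.2 FPKM in saline replicate 1). The log2 fold change was -0.22 (SE 0.413, 95% interval -1.18 to 0.74, limma adjusted p = 0.945), and it turned to 0.16 without saline replicate 1.

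Liver transcripts were measured beside Cyp2e1, because hepatocytes express it strongly. Alb measured 3.45, 101 and 53.4 FPKM in Riclin replicates 2, 3 and 4 and 143, 21 and 2.58 FPKM in saline replicates 1, 2 and 4. The 2 libraries highest in Cyp2e1 were also the highest in Alb and the lowest in pancreatic transcripts, whereas Riclin replicate 4, next highest in Alb, was lowest in Cyp2e1. The same 2 libraries were the highest in Adh1, Adh5, Adh7, Aldh2 and Aldh3a1 as well, so this order is not particular to Cyp2e1. The part of the pancreatic transcripts in it was not tested. Of the 14 hepatocyte markers 12 were tested, 8 higher and 4 lower in Riclin with 0 past the adjusted threshold by limma, and the list summed to 1048 to 1734 FPKM in Riclin and 900 to 1402 FPKM in saline, mostly Apoa1. Fga and Tat were at 0 FPKM in saline replicate 4 and Cyp2c29 at 0 FPKM in Riclin replicate 2. Adipocytes, another source of Cyp2e1 and Adh1, had markers that summed to 212 to 375 FPKM in Riclin and 307 to 375 FPKM in saline libraries, with 2 of 9 tested markers higher and 7 lower. The part of liver and fat in the values of Cyp2e1 and Adh1 was not tested. The nearest genes in pattern were Arhgap27 (r = 0.98), Tdrp (r = 0.98) and the acute-phase protein Orm1 (r = 0.96).

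**Figure D3:**
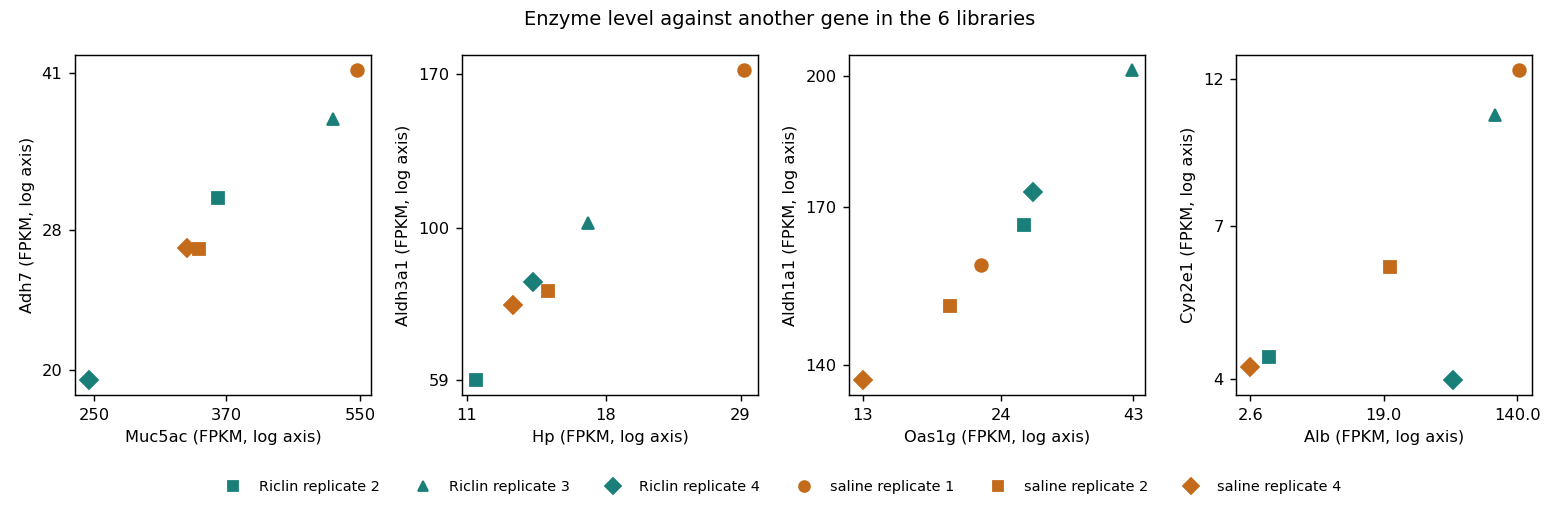
Level of 4 enzyme genes (vertical axes, FPKM, log scale) against another gene in the same library (horizontal axes, FPKM, log scale), with 1 point for each of the 3 Riclin and 3 saline libraries. Adh7 runs with Muc5ac, Aldh3a1 with Hp and Aldh1a1 with Oas1g, genes picked for their likeness, and in the panel of Cyp2e1 against Alb, Riclin replicate 4 lies apart with 3.99 FPKM of Cyp2e1 and 53.4 FPKM of Alb.

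The rest of the pathway was read from 79 listed genes in 6 lists, all in the table and 61 of them tested. None passed the adjusted threshold. Of the 61, 28 had a higher and 33 a lower level in Riclin, where all tested genes gave 7195 and 4543. With median-of-ratios scaling the split was 22 and 39, beside 5833 and 5891 over all tested genes. Without saline replicate 1 it was 38 and 23, beside 8038 and 3524. An unadjusted limma p under 0.05 was found for 7 of the 61 (11.5%), 2 higher and 5 lower. By that rule 4.07% of all tested genes were higher and 1.83% lower. The groups did not overlap in 7 genes as well, 2 higher and 5 lower, where 8.14% of all tested genes were higher and 3.02% lower with such a gap. Without saline replicate 1 there were 5 higher and 2 lower at that unadjusted p, where all genes gave 670 higher and 158 lower. The count of 7 at an unadjusted p under 0.05 was 12 without Riclin replicate 3, and 4 without Riclin replicate 4 or without saline replicate 4.

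Rbp2, the retinol carrier of absorptive cells, measured 75.1, 75.1 and 47.8 FPKM in Riclin and 126, 79 and 132 FPKM in saline libraries, without overlap (log2 fold change -0.75, limma adjusted p = 0.778). The carrier of retinoic acid Crabp2 lay the other way, at 6.11, 4.88 and 3.89 FPKM in Riclin and 0.657, 3.92 and 1.80 FPKM in saline libraries, with an overlap between Riclin replicate 4 and saline replicate 2 (log2 fold change 1.05, limma adjusted p = 0.778). Saline replicate 1, lowest in Crabp2, was also lowest in the squamous marker sum, whose part in the Crabp2 values was not tested. Of the 26 genes of retinoid handling 17 were tested, 10 higher and 7 lower, and the median log2 fold change was 0.066. In this list the groups did not overlap in 2 genes with higher and 3 with lower values in Riclin. Those higher were the retinol dehydrogenase family gene Rdh13, at 9.35 to 10.9 FPKM in Riclin and 7.79 to 9.10 FPKM in saline, and the retinoid X receptor gene Rxrb, at 17.2 to 17.8 FPKM in Riclin and 13.7 to 16.4 FPKM in saline. The carotenoid-cleaving enzyme gene Bco2 was lower, at 3.06 to 4.31 FPKM in Riclin and 4.33 to 6.79 FPKM in saline.

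Among the other aldehyde dehydrogenases 15 of 17 were tested, 6 higher and 9 lower, and the median log2 fold change was -0.057. Aldh1a2, the retinaldehyde dehydrogenase of stromal cells, measured 6.89, 7.07 and 5.81 FPKM in Riclin replicates 2, 3 and 4, against 12.2, 8.58 and 9.30 FPKM in saline replicates 1, 2 and 4. The groups did not overlap (log2 fold change -0.53, SE 0.143, limma adjusted p = 0.699). Aldh3b1, a membrane-bound enzyme of lipid aldehydes, lay lower without overlap, at 0.769 to 1.16 FPKM in Riclin and 1.30 to 2.02 FPKM in saline (limma adjusted p = 0.778). Aldh6a1, the mitochondrial enzyme of valine breakdown, had the highest mean of this list and measured 75 ± 9.22 FPKM in Riclin and 58.5 ± 8.98 FPKM in saline, with overlap between the groups (n = 3 each, SD; adjusted p = 0.820 by limma). Of 8 leukocyte markers listed, the 6 tested all had lower means in Riclin. Their list summed to 127 to 180 FPKM in Riclin and 172 to 234 FPKM in saline libraries, mostly Lyz2 (106 to 161 FPKM in Riclin, 134 to 189 FPKM in saline). Of 8 fibroblast markers, all tested, 4 were higher and 4 lower, with sums of 720 to 793 FPKM in Riclin and 572 to 748 FPKM in saline. The part of these cell types in the differences was not tested. Of the other alcohol dehydrogenases Adhfe1, a mitochondrial enzyme that acts on hydroxyacids, was the 1 tested, at 2.33 to 5.21 FPKM in Riclin and 2.53 to 4.01 FPKM in saline (log2 fold change 9.7e-04, limma adjusted p = 0.999).

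**Figure D4:**
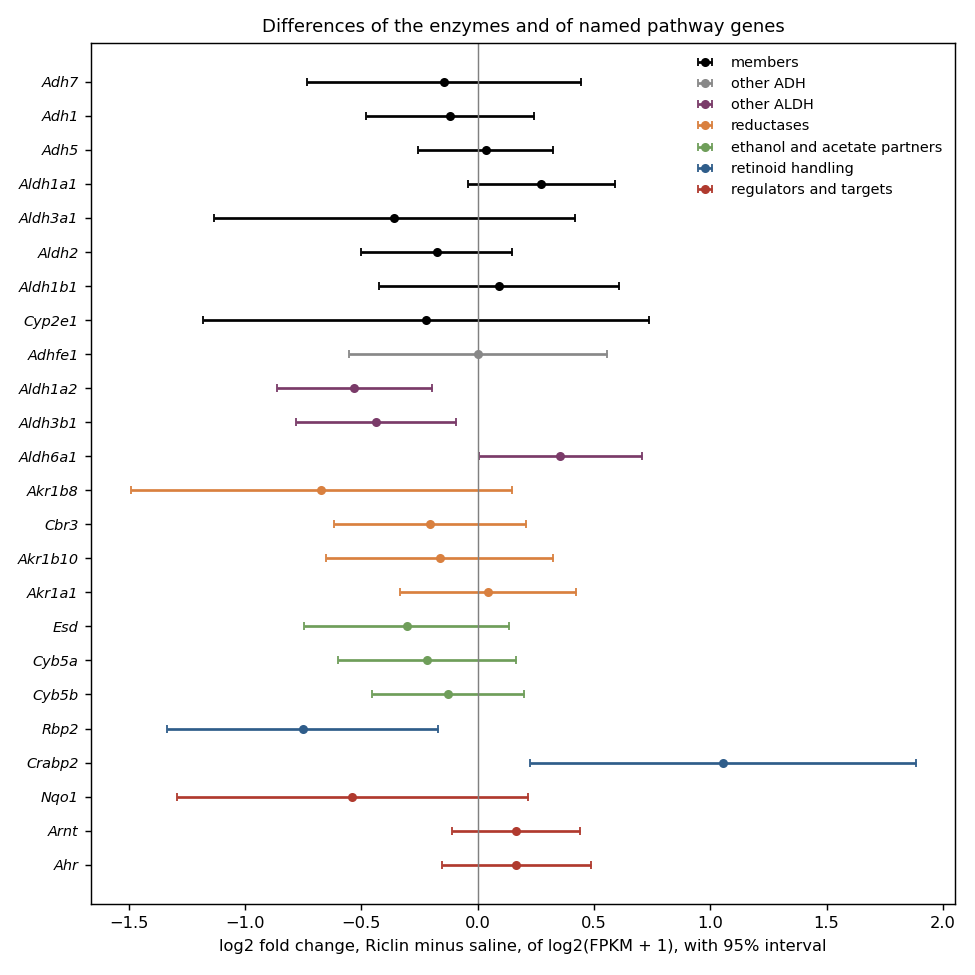
Log2 fold change of log2(FPKM + 1), Riclin minus saline (horizontal axis), with its 95% limma interval, for the 8 tested enzymes (black) and the named pathway genes (colour by list). All 8 enzyme intervals cross 0. Those of Aldh1a2, Aldh3b1 and Rbp2 lie below 0 and those of Aldh6a1 and Crabp2 above it, and none of these passed the adjusted threshold.

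Of 10 reductases that turn aldehydes and ketones to alcohols, 9 were tested, 2 higher and 7 lower, and the median log2 fold change was -0.097. Akr1a1, the aldehyde reductase with the highest mean, measured 401 ± 46.5 FPKM in Riclin and 388 ± 36.3 FPKM in saline (SD, n = 3 each, log2 fold change 0.044, limma adjusted p = 0.978). Akr1b8, a reductase of lipid aldehydes and retinaldehyde, measured 62.7, 127 and 43.3 FPKM in Riclin replicates 2, 3 and 4, against 127, 93.4 and 119 FPKM in saline replicates 1, 2 and 4, with overlap through Riclin replicate 3 (log2 fold change -0.67, limma adjusted p = 0.841). That log2 fold change was -1.09 without Riclin replicate 3 and -0.33 without Riclin replicate 4. Cbr3 and Akr1b10 had log2 fold changes of -0.21 and -0.16 (limma adjusted p = 0.885 and 0.924).

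Partners of ethanol and acetate metabolism gave 3 higher and 6 lower of 9 tested, and the median of their log2 fold changes was -0.060. Esd, the hydrolase that works after Adh5 in formaldehyde removal, measured 78.0 ± 16.4 FPKM in Riclin and 96.4 ± 17.1 FPKM in saline (SD, n = 3 each, log2 fold change -0.31, limma adjusted p = 0.846). The electron carrier Cyb5a, with the highest mean of the list, measured 151 ± 24.2 FPKM in Riclin and 176 ± 19.4 FPKM in saline (log2 fold change -0.22, limma adjusted p = 0.882), and Cyb5b 53.8 ± 7.02 FPKM in Riclin and 58.8 ± 6.47 FPKM in saline (limma adjusted p = 0.913). Catalase, Cat, which can oxidise ethanol in peroxisomes, lay at 41.0 to 58.3 FPKM in Riclin and 38.2 to 60.2 FPKM in saline. In all of these the groups overlapped.

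Regulators and their target genes gave 6 higher and 4 lower of 10 tested, and the median of their log2 fold changes was 0.10, and the groups overlapped in all 10. The quinone reductase gene Nqo1, with the highest mean of the list, measured 160, 199 and 81.3 FPKM in Riclin replicates 2, 3 and 4, against 253, 178 and 178 FPKM in saline replicates 1, 2 and 4 (log2 fold change -0.54, limma adjusted p = 0.843). Without Riclin replicate 4 that log2 fold change was -0.17. Riclin replicate 4 was lowest in Nqo1, Adh7 and Muc5ac, and saline replicate 1 highest in all 3. The aryl hydrocarbon receptor gene Ahr and its partner gene Arnt had overlapping groups. Ahr averaged 3.85 ± 0.573 FPKM in Riclin and 3.33 ± 0.550 FPKM in saline, and Arnt 10.4 ± 0.967 FPKM in Riclin and 9.16 ± 1.11 FPKM in saline (n = 3 each, SD; adjusted p by limma = 0.884 and 0.873). The Ahr target Cyp1a1, below the filter, lay at 0.0963 to 0.206 FPKM in Riclin and 0.169 to 0.453 FPKM in saline.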

How the data were processed

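RNA from mouse stomach was extracted with TRIzol and made into libraries with a VAHTS Universal V6 kit, per the labels' protocols. The authors deposited 1 table of FPKM values for 23550 gene symbols, with 1 column per library and 0 columns of other samples. The genome build mm10 and the tool Bowtie2 stand in the submitters' processing notes without a role or version. For the counting tool, annotation and strand setting, a statement was not given in the sources used here. Since FPKM is scaled to the library, transcripts of pancreas or other organs in a library lower the values of all its other genes.

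The test took 11738 genes that reached 1 FPKM in 3 or more libraries, and Riclin was compared with saline by limma 3.58.1 in R 4.3.3 on log2(FPKM + 1) with an intensity trend, two-sided and with Benjamini-Hochberg adjustment over all of them. Fold changes are on that scale, which understates the change of low genes. Reads were recovered as whole numbers from the steps of the FPKM values for 23549 of 23550 genes (relative tolerance 1e-08) and tested with voom as an alternative. The fit was tested on simulated data. Poisson intervals (95%) and the limit of 3 reads for a count of 0 cover counting error only. Other alternatives changed the pseudocount, filter, scaling, variance model, replicate block and the libraries used.

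The members and lists were chosen with earlier results of these data known. Named were all 9 members, the 3 tested genes of each list with the smallest p and the 1 with the highest mean, and the 3 genes most like each tested member among those spanning at least 1 log2 unit, without unnamed symbols. One gene that the rule names is not reported here. Bco2, Rdh13, Rxrb, Cat, Cyp1a1, Adh6a, Aldh1a7 and the single marker genes were chosen after their values were seen. Gene positions are from GENCODE M21 and promoters from RefSeq. Replicate numbers were not taken to pair libraries, since the groups share only 2 of them and the labels do not say what a number marks.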

Additional observations from a re-analysis of the deposited data

How the results depend on the processing

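Over 17 alternatives, 0 of the 8 tested members and 0 of the 61 pathway genes passed the adjusted threshold by limma, and member log2 fold changes kept their direction in 122 of 135 values. The replicate block and leaving out the 2 libraries lowest in acinar transcripts share their estimates by construction, and both are counted. Where direction turned, the cause was not tested. Adh5 was -0.013 with median-of-ratios scaling, -0.0024 with upper-quartile scaling, -0.036 with pancreatic genes removed, -0.054 without Riclin replicate 3 and -0.032 without saline replicate 4. Adh7 was 0.10 without Riclin replicate 4 and 0.057 without saline replicate 1. Without saline replicate 1, Aldh3a1 was 0.018, Cyp2e1 0.16 and Aldh1b1 -0.031, and Aldh1b1 was -0.062 without saline replicate 2. With single libraries left out, Adh7 lay between -0.34 and 0.10, Aldh3a1 between -0.56 and 0.018, Aldh1b1 between -0.062 and 0.37, Cyp2e1 between -0.61 and 0.16, Adhfe1 between -0.25 and 0.20, Akr1b10 between -0.27 and 0.028, Akr1a1 between -0.038 and 0.13, and Adh5 between -0.054 and 0.10. Of 285 values of the named pathway genes 270 kept direction. Akr1b10 was 0.028 without Riclin replicate 4 and 0.021 without saline replicate 1. Akr1a1 was -0.0033 with median-of-ratios scaling, -0.026 with pancreatic genes removed, -0.038 without Riclin replicate 3 and -0.036 without saline replicate 4. Adhfe1 was -0.0083 with a pseudocount of 0.1, -0.039 with median-of-ratios scaling, -0.030 with upper-quartile scaling, -0.020 with voom, -0.056 with pancreatic genes removed, -0.25 without Riclin replicate 3 and -0.15 without saline replicate 4.

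Over all genes, a robust prior for the variance gave 2 adjusted calls, and there were 0 to 1 when single libraries were left out (1 without saline replicate 2). The 693 genes at an unadjusted p under 0.05 were 1224 without a filter, 376 with a filter at 5 FPKM and 547 to 828 with single libraries left out. They were 929 with median-of-ratios scaling, 903 with upper-quartile scaling, 692 without an intensity trend and 874 with pancreatic genes removed. At that p the members numbered 1 with median-of-ratios scaling (Aldh2), 1 with upper-quartile scaling and 1 without an intensity trend (Aldh1a1 in both), 2 with pancreatic genes removed (Aldh2 and Aldh1a1), and 0 to 1 with single libraries left out (Aldh1b1 without saline replicate 4). The pathway genes numbered 4 with the filter at 5 FPKM, 13 with pancreatic genes removed and 4 to 12 with single libraries left out. Those 13 were 2 higher and 11 lower in Riclin, where all genes gave 308 higher and 566 lower at that setting. With pancreatic genes removed, 35.2% of the genes at that p were higher in Riclin, against 69%.

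With the replicate number as a block, Adh5 was -0.0032 and Adhfe1 -0.19, with 0 members and 8 pathway genes at an unadjusted p under 0.05, and 648 genes in all. The deviations of same-numbered libraries correlated at 0.22 for number 2 and 0.011 for number 4. Those of differently numbered libraries correlated at -0.44 to 0.39. Leaving out the 2 libraries lowest in acinar transcripts, chosen after seeing the data, gave the same values of -0.0032 and -0.19. This sameness is fixed by the design. Those libraries, saline replicate 1 and Riclin replicate 3, carry numbers that the other group lacks. The block fit takes no group difference from them. A filter at 5 FPKM leaves out Aldh1b1, Adhfe1, Aldh3b1, Crabp2 and Ahr. With 3 libraries a group the precision is limited: the 95% interval of Cyp2e1 ran from -1.18 to 0.74 and that of Adh5 from -0.26 to 0.32.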
